A study of Mus musculus with 2 samples.

Results

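The genes Bmp1 to Bmp7 were followed through the cells of mouse colon, from the fibroblasts at the top and bottom of the crypt to other stromal cells and the epithelium. The 7 genes were taken by name, without regard to their values, and all 7 are present among the 17809 genes of the wild-type table and the 15972 genes of the reporter table. The wild-type library holds 7495 cells of C57BL/6 colon, in which epithelium (sorted as EpCAM+ CD45-) had been pooled in equal parts with stroma (sorted as negative for both proteins). The reporter library holds 4409 mesenchymal cells of the Pdgfra-H2B-eGFP strain, sorted for green fluorescence from a nuclear GFP expressed under the Pdgfra gene, so that its makeup follows the GFP gate. Each library pooled colon cells of 3 female mice aged 8 to 12 weeks before loading, and cells cannot be traced to mice. There is therefore 1 library per group, no replicate check and no p-value, and the intervals given are 95% intervals that cover counting error only.

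Bone morphogenetic proteins (BMPs) are secreted ligands of the TGF-beta superfamily that bind type I and type II receptors and act through SMAD1, SMAD5 and SMAD9 and response genes such as the Id family. In the intestine they restrain stem cell behavior and favor differentiation toward the top of the crypt, and secreted antagonists such as gremlin limit them near the crypt base. Bmp2 and Bmp4 encode closely related ligands, as do Bmp5, Bmp6 and Bmp7, while the protein of Bmp3 can oppose other BMPs. Bmp1, in spite of its name, encodes a secreted metalloprotease that processes procollagens and cleaves the BMP antagonist chordin, and it was left out of the counts of ligands per cell.

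In mouse genome build GRCm38 (GENCODE annotation), Bmp1 lies at chr14:70474558-70520234 on the minus strand, Bmp2 at chr2:133552159-133562885 on the plus strand and Bmp3 at chr5:98854415-98884396 on the plus strand. Bmp4 lies at chr14:46383520-46390669 on the minus strand, Bmp5 at chr9:75775364-75900310 on the plus strand, Bmp6 at chr13:38345107-38500302 on the plus strand and Bmp7 at chr2:172868012-172940321 on the minus strand. All 7 are protein-coding genes. Bmp5 overlaps a gene annotated on its own strand (Gm47723), so reads of these genes could be split. Bmp4, Bmp5 and Bmp6 also overlap genes on the opposite strand. RefSeq promoter sequences (GRCm38.p6) were at hand for 3 of the 7 genes. They are shown as the 250 bases before the annotated start, 5′ to 3′ on the strand of the gene. The reason is that these genes had 3 unlike patterns below. Bmp4 was in most fibroblasts, though not in most cells of a crypt-bottom type of the reporter library. Bmp5 was highest in crypt-top fibroblasts and Bmp6 highest in crypt-bottom fibroblasts. Capitals mark the GC box letters GGGCGG on either strand. The windows are chr14:46390670-46390919 for Bmp4, chr9:75775115-75775364 for Bmp5 and chr13:38345466-38345715 for Bmp6, whose RefSeq start lies inside the GENCODE gene.
Bmp4 promoter: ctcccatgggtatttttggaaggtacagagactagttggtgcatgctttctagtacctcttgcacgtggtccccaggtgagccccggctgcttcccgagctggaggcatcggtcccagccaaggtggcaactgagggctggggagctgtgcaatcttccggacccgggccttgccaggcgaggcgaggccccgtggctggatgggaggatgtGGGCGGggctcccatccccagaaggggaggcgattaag
Bmp5 promoter: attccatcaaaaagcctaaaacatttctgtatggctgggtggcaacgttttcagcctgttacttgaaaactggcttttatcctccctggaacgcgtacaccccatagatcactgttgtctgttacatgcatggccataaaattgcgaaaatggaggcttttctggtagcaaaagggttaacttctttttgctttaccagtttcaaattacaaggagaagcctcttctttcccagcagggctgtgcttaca
Bmp6 promoter: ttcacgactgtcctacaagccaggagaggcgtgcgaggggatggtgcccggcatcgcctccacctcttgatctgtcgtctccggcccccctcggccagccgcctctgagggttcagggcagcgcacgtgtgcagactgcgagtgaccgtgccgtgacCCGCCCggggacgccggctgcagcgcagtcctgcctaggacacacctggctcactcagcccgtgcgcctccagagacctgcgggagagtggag
The Bmp4 and Bmp6 windows are rich in G and C (63.2% and 68.8%), and the Bmp5 window is not (42.8%). The GC box lies 38 bases before the start of Bmp4 and, on the opposite strand, 93 bases before that of Bmp6, and 32.7% of the 32851 promoters of this table hold it in their 250 bases. None of the 3 windows holds, on either strand, the TATA box letters TATAAA (in 12.4% of the promoters), the CCAAT box (in 33.8%), the forkhead core TGTTTA (in 12%), the BMP-SMAD palindrome GGCGCC (in 9.59%) or the TCF core CTTTGA (in 13.8%). The GC box and the palindrome can share letters, but no window held both.

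Values are UMI counts that the study had corrected to a common depth, called corrected counts here, and cells were assigned to classes by marker lists that contain none of the 7 genes. Corrected totals per cell ran from 6120 to 16389 in the wild-type library and from 2314 to 4432 in the reporter library. Levels are therefore set side by side between the libraries and not compared. Cells are called deeper or shallower below by their number of genes above 0 in these counts, which need not follow their original depth. The wild-type library gave 816 crypt-top fibroblast-like cells (CTFs-like), 1138 and 504 cells of 2 crypt-bottom types (CBFs1-like and CBFs2-like), 949 smooth muscle-like cells, 2478 epithelial cells and smaller classes. A further 783 cells in 4 clusters stayed unnamed. The reporter library gave 635 CTFs-like, 2755 CBFs1-like and 853 CBFs2-like cells, with 114 immune-like and 52 epithelial cells. Of 9 CBFs1 markers, the 3 reporter CBFs1-like clusters, led by Sbno2, C1qtnf3 and Spock3, had 6, 6 and 8 at least 2-fold higher than in the other fibroblast types. Over all other cells, which include the other CBFs1-like clusters, they had 0, 0 and 3. Only the C1qtnf3 cluster had a CBFs1 marker among its 10 leading genes. The wild-type CBFs1-like cluster had all 9 by both measures. The 12 CTFs markers were all at least 2-fold higher in the wild-type CTFs-like cluster than in the other fibroblast types, and 11 of 12 were in the reporter library. Among the 10 leading genes of the reporter CTFs-like cluster, however, 2 were smooth muscle markers and 1 was a CTFs marker. Its mean of Acta2, the smooth muscle actin gene, was 4.84, beside 0.12 for Myh11 and 0.05 for Actg2, the muscle myosin and enteric actin genes. Wild-type CTFs-like cells had the same order (10.9, 0.31 and 0.04), whereas smooth muscle-like cells held means of 104, 22.2 and 17.5. The study's methods do not part myofibroblasts from its smooth muscle cells, and the same holds for the smooth muscle-like class.

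Bmp4 was the most widely detected member, above 0 in 54.0% of all wild-type cells, beside 13% for Bmp7 and 13.6% for Bmp3. Its share includes corrected counts of exactly 1, which were frequent in cells with few genes and need not be reads, as described below. In wild-type CTFs-like cells Bmp4 had a mean of 10.5 corrected counts per cell and was above 0 in 99.1% of cells (98.2 to 99.7). Bmp5 followed in the same cells with a mean of 6.91 and 96.1% (94.5 to 97.3), Bmp2 with 3.31 and 71.9% (68.7 to 75), and Bmp7 with 1.78 and 70.6% (67.3 to 73.7). These 4 ligands had their highest mean in CTFs-like cells among all named classes, and so did Bmp3. Bmp3 was above 0 in 45.7% of CTFs-like cells (42.3 to 49.2; mean 1.37), Bmp6 in 34.6% (31.3 to 37.9; mean 0.53) and Bmp1 in 33.3% (30.1 to 36.7; mean 0.49). The shallower reporter library kept this order of shares for the first 5 ligands except that Bmp7 stood before Bmp2. Its CTFs-like cells had Bmp4 in 93.1% (90.8 to 94.9), Bmp5 in 79.5% (76.2 to 82.6), Bmp7 in 54.3% (50.4 to 58.3), Bmp2 in 42.8% (38.9 to 46.8) and Bmp3 in 40.2% (36.3 to 44.1). The intervals of Bmp2 and Bmp7 overlap in the wild-type library, as do those of Bmp2 and Bmp3 in the reporter library. The order of genes within a class is of these counts as they stand, since capture differs between transcripts.

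**Figure D1:**
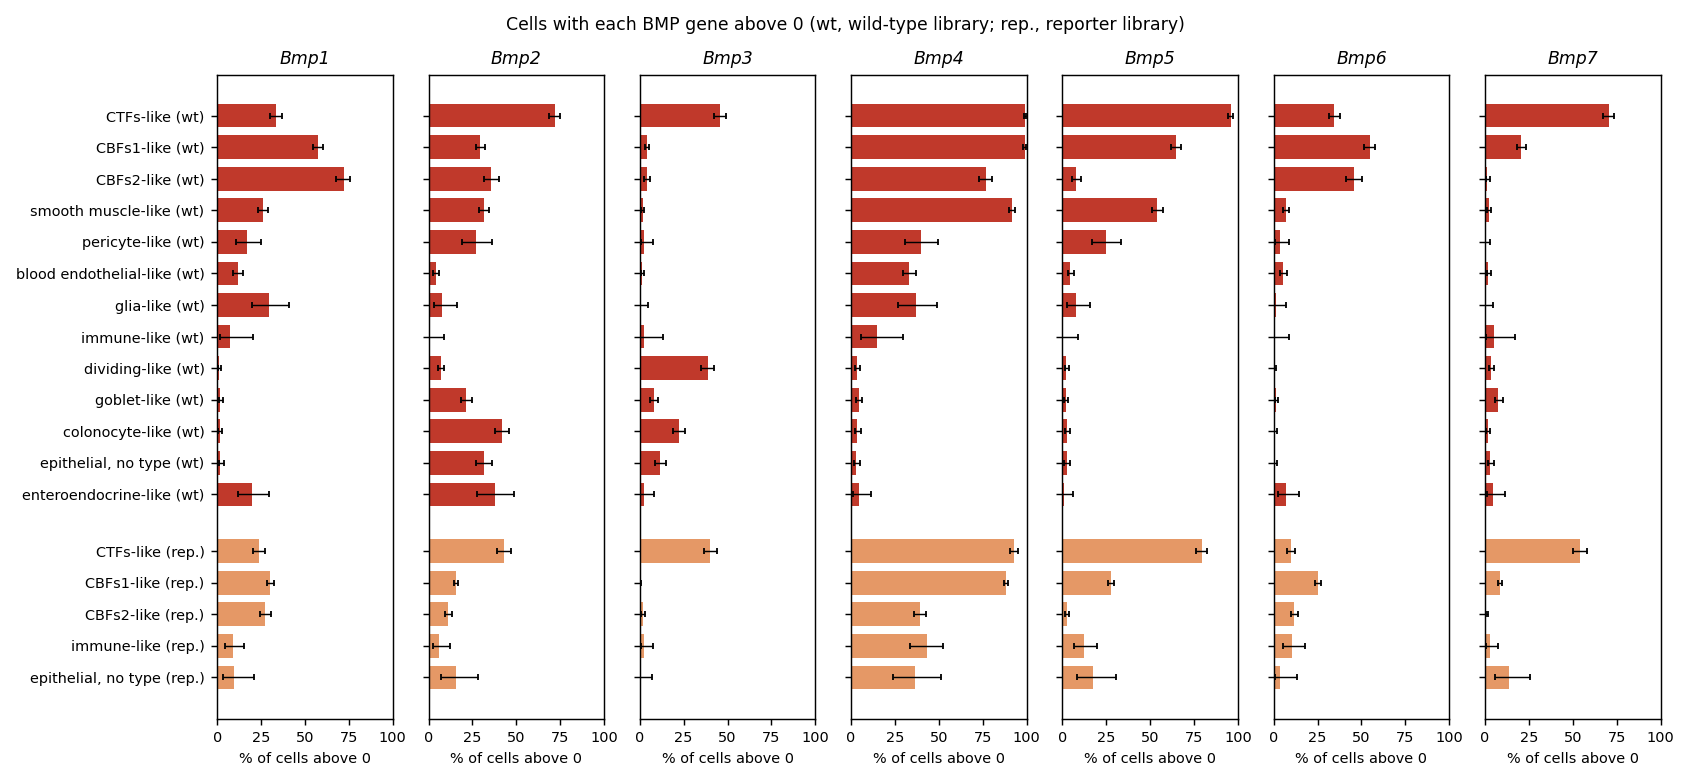
Percentage of cells with a corrected count above 0 (x axis) for each of the 7 genes (panels) in each class of the wild-type (red, wt) and reporter (orange, rep.) library, with Clopper-Pearson 95% intervals. CTFs-like cells reach 96.1% for Bmp5 and 70.6% for Bmp7 in the wild-type library, Bmp4 spans all fibroblast types and smooth muscle-like cells, and among epithelial classes Bmp2 and Bmp3 stand above the other members.

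Crypt-bottom fibroblasts carried Bmp4, Bmp1, Bmp6 and, in the CBFs1-like cells, Bmp5. Bmp2 was present too, with wild-type means of 0.45 for the CBFs1-like type and 0.58 for the CBFs2-like type. Exactly 1 Bmp2 count was found in 20.4% and 22.2% of these cells, and 2 or more in 9.05% and 13.5%. The reporter means of Bmp2 were 0.21 and 0.15. Bmp7 had a wild-type mean of 0.30 for the CBFs1-like type. Bmp4 had a mean of 8.37 in wild-type CBFs1-like cells, with 98.9% of cells above 0 (98.1 to 99.4), and of 2.67 in CBFs2-like cells, with 76.8% (72.8 to 80.4). Bmp5 was above 0 in 64.6% (61.7 to 67.4; mean 1.3) of CBFs1-like and 7.74% (5.56 to 10.4; mean 0.16) of CBFs2-like cells. Bmp1 was highest in CBFs2-like cells (mean 1.36; 72.0%, 67.9 to 75.9) and next in CBFs1-like cells (0.96; 57.4%, 54.4 to 60.3). Bmp6 was highest in CBFs1-like cells (0.95; 54.7%, 51.7 to 57.6), and the interval of CBFs2-like cells lies below it (0.79; 45.6%, 41.2 to 50.1). For both Bmp1 and Bmp6 every interval of a CBFs-like share in the wild-type library lies above that of CTFs-like cells. Reporter cells had 2 or more Bmp4 counts in 70.1% of CBFs1-like and 13.6% of CBFs2-like cells, and exactly 1 in 18.3% and 25.8%. Among reporter cells Bmp5 was above 0 in 27.7% (26.0 to 29.4) of CBFs1-like and 2.70% (1.72 to 4.02) of CBFs2-like cells. Bmp6 had an interval above that of CTFs-like cells for CBFs1-like cells only there, at 25.1% (23.5 to 26.7) beside 11.7% (9.64 to 14.1) of CBFs2-like and 9.76% (7.57 to 12.3) of CTFs-like cells. Bmp1 was above 0 there in 30.3% (28.6 to 32.1), 27.4% (24.5 to 30.6) and 23.8% (20.5 to 27.3) of CBFs1-like, CBFs2-like and CTFs-like cells, and the intervals of CBFs2-like and CTFs-like cells overlap. As a background level, epithelial cells had Bmp4 in 3.67%, Bmp5 in 2.30%, Bmp6 in 1.09%, Bmp7 in 4.04% and Bmp1 in 2.10% of cells. Their median was 3221 genes per cell against 2641.5 in fibroblasts.

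Between CTFs-like and all CBFs-like cells, 4 of the 7 genes were at least 2-fold higher in CTFs-like cells in both libraries: Bmp2, Bmp3, Bmp5 and Bmp7. Of all genes with at least 20 corrected counts, 5% were at least 2-fold higher among wild-type and 4.82% among reporter cells, and 8.51% and 4.99% were at least 2-fold lower. Bmp3 had the widest gap, with means of 1.37 and 0.06 in the wild-type library, a log2 ratio of 4.60 (4.29 to 4.92). In the reporter library Bmp3 means were 0.63 and 0.01, a log2 ratio of 6.30 (5.76 to 6.90), and 92.4% of all its counts there fell in CTFs-like cells, which are 14.4% of the cells. Bmp3 was thus close to absent from crypt-bottom fibroblasts, at 4.02% of wild-type and 0.75% of reporter CBFs-like cells.

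Bmp7 had means of 1.78 and 0.21 in wild-type CTFs-like and CBFs-like cells, a log2 ratio of 3.06 (2.89 to 3.23), and of 0.85 and 0.08 in the reporter library, a ratio of 3.49 (3.28 to 3.71). Bmp5 had means of 6.91 and 0.95 (log2 ratio 2.87, 2.79 to 2.95) in the wild-type and of 1.75 and 0.28 (2.66, 2.54 to 2.79) in the reporter library. Bmp2 had means of 3.31 and 0.49 (2.75, 2.64 to 2.86) and of 0.97 and 0.20 (2.31, 2.15 to 2.46). For each of these 3 ligands the ratios of the libraries lie within 1 log2 unit of each other. Bmp4 was 1.59-fold higher in wild-type (log2 ratio 0.66, 0.62 to 0.71) and 1.61-fold higher in reporter CTFs-like cells (0.68, 0.62 to 0.75), below the 2-fold line. Bmp1 and Bmp6 were lower in CTFs-like cells, and each passed 2-fold lower in 1 library only: Bmp1 with a log2 ratio of -1.14 (-1.3 to -0.98) in the wild-type and -0.43 (-0.67 to -0.20) in the reporter library, and Bmp6 with -0.76 (-0.91 to -0.60) and -1.31 (-1.69 to -0.96).

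**Figure D2:**
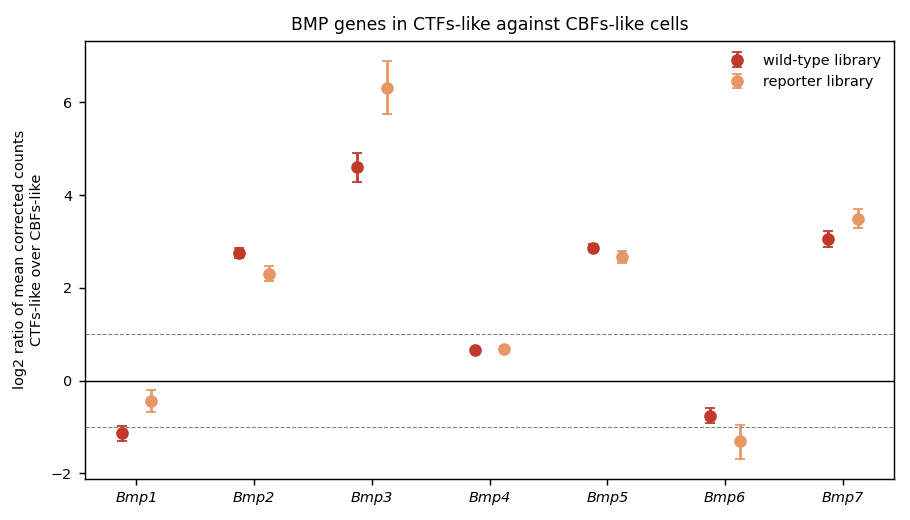
Log2 ratio of the mean corrected count in CTFs-like over CBFs-like cells (y axis) for each gene in the wild-type (red) and reporter (orange) library; bars are 95% intervals for counting error and dashed lines mark 2-fold. Bmp2, Bmp3, Bmp5 and Bmp7 lie above the upper dashed line in both libraries, Bmp4 lies between 0 and it, and Bmp1 and Bmp6 lie below 0.

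These intervals come from the split of summed counts and are too narrow, since counts of a gene cluster in cells. The Bmp4 ratio depended on which crypt-bottom type was the reference: against CBFs1-like cells alone it was 0.33 among wild-type and 0.39 among reporter cells, and against CBFs2-like cells alone 1.97 and 2.60. Bmp5 and Bmp7 moved the same way, to 5.46 and 6.81 against wild-type CBFs2-like cells alone. The reference also ended both 2-fold lower calls: the wild-type ratio of Bmp1 was -0.96 against CBFs1-like cells alone, and the reporter ratio of Bmp6 was -0.45 against CBFs2-like cells alone.

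The crypt-bottom types differed from each other in the same 3 ligands, and Bmp4, Bmp5 and Bmp7 were all at least 2-fold lower in CBFs2-like than in CBFs1-like cells of both libraries. Of all genes, 4.3% were that much lower among wild-type and 5.83% among reporter cells. No member was called 2-fold higher in CBFs2-like cells, where 6.51% and 3.29% of all genes were. Bmp5 had means of 0.16 in CBFs2-like and 1.3 in CBFs1-like cells of the wild-type library (log2 ratio -3.05, -3.39 to -2.72) and of 0.04 and 0.35 in the reporter library (-3.10, -3.63 to -2.61). Bmp7 had means of 0.02 and 0.30 (-4.25, -5.47 to -3.25) and of 0.01 and 0.10 (-3.55, -4.88 to -2.49), with only 8 and 7 corrected counts in the CBFs2-like cells. Bmp4 had means of 2.67 and 8.37 (-1.65, -1.73 to -1.57) and of 0.59 and 2.74 (-2.21, -2.35 to -2.08). Bmp4, Bmp5 and Bmp7 thus shared the order CTFs-like, CBFs1-like, CBFs2-like in their means in both libraries. Bmp6 passed 2-fold lower in the reporter library (-1.05) and not in the wild-type library (-0.26), and Bmp1 and Bmp2 stayed within 2-fold in both. Bmp3 had between 14 and 66 counts per type and library. Its means were 0.05 and 0.06 among wild-type and 0.02 and 0.01 among reporter cells, the latter a log2 ratio of 1.79 (0.64 to 2.95) on 15 and 14 counts that the pseudocount of 0.01 keeps below 2-fold.

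Bmp2 also varied among the 3 CBFs1-like clusters of the reporter library. It was above 0 in 19.6% (17.3 to 22.1) of the 1101 cells of the cluster led by Sbno2, in 19.5% (16.5 to 22.8) of the 656 cells of the cluster led by Spock3 and Cxcl5, and in 8.62% (6.95 to 10.5) of the 998 cells of the cluster led by C1qtnf3. Over the C1qtnf3 cluster its log2 ratio was 1.61 (1.28 to 1.95) in the Sbno2 cluster, where 2.56% of all genes were 2-fold higher, and 1.25 (0.88 to 1.64) in the Cxcl5 cluster, where 9.28% were. The other members that passed the count filter stayed within 2-fold in both, where 1.29% and 0.139% of all genes were 2-fold lower. Median genes per cell were 1243, 1871 and 1382 in these 3 clusters. The Sbno2 cluster was thus the shallowest and the Cxcl5 cluster the deepest, and the part of depth was not tested. Without the Sbno2 and Cxcl5 clusters, an alternative chosen after seeing the data, the reporter Bmp2 ratio of CTFs-like over CBFs-like cells was 2.98 and that of Bmp7 4.16.

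Within CTFs-like cells Bmp2 and Bmp3 were split between clusters, while the other members were shared. At a finer clustering (resolution 0.8) the cells named CTFs-like formed 1 cluster high in Nrg1, the gene of the growth factor neuregulin 1, and 1 high in Wif1, the gene of a secreted Wnt inhibitor. Clusters were named anew at this resolution, so their cells are not exactly those of the CTFs-like class used above. These clusters were singled out after their values were seen, so what follows is a description. In the wild-type library Bmp2 had a mean of 6.57 in the 216 Nrg1-high cells and of 2.16 in the 575 Wif1-high cells, a log2 ratio of 1.61 (1.5 to 1.72). In the reporter library the means were 2.29 in 123 and 0.65 in 517 cells, a ratio of 1.82 (1.59 to 2.06). Bmp2 was above 0 in 98.1% (95.3 to 99.5) of Nrg1-high and 63.8% (59.7 to 67.8) of Wif1-high wild-type cells, and in 67.5% (58.4 to 75.6) and 37.1% (33.0 to 41.5) of the reporter cells. Bmp2 was thus higher on the Nrg1-high side but present on both.

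Bmp3 ran the other way. Its means were 0.17 in Nrg1-high and 1.86 in Wif1-high cells of the wild-type library (log2 ratio -3.44, -3.95 to -2.97) and 0.04 and 0.77 in the reporter library (-4.24, -5.87 to -3.0). It was above 0 in 12% (8.02 to 17.1) of Nrg1-high and 59.8% (55.7 to 63.9) of Wif1-high wild-type cells, and in 4.07% (1.33 to 9.23) and 48.2% (43.8 to 52.6) of the reporter cells. The intervals of the clusters are far apart in both libraries, and Nrg1-high cells are the deeper ones, with a median of 2922 genes against 2277 in the wild-type and 1818 against 1437 in the reporter library. Of all genes 9.71% and 8.8% were at least 2-fold higher in the Nrg1-high cluster and 4.24% and 4.29% at least 2-fold lower, and 1 of 7 members was on each side. Bmp4, Bmp5, Bmp7, Bmp6 and Bmp1 stayed within 2-fold, with Bmp4 at 9.10 and 11.3 and Bmp5 at 8.14 and 6.61 in the wild-type library. Without the Nrg1-high cells the Bmp2 ratio of CTFs-like over CBFs-like cells was 2.12 among wild-type and 1.73 among reporter cells, still past 2-fold.

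**Figure D3:**
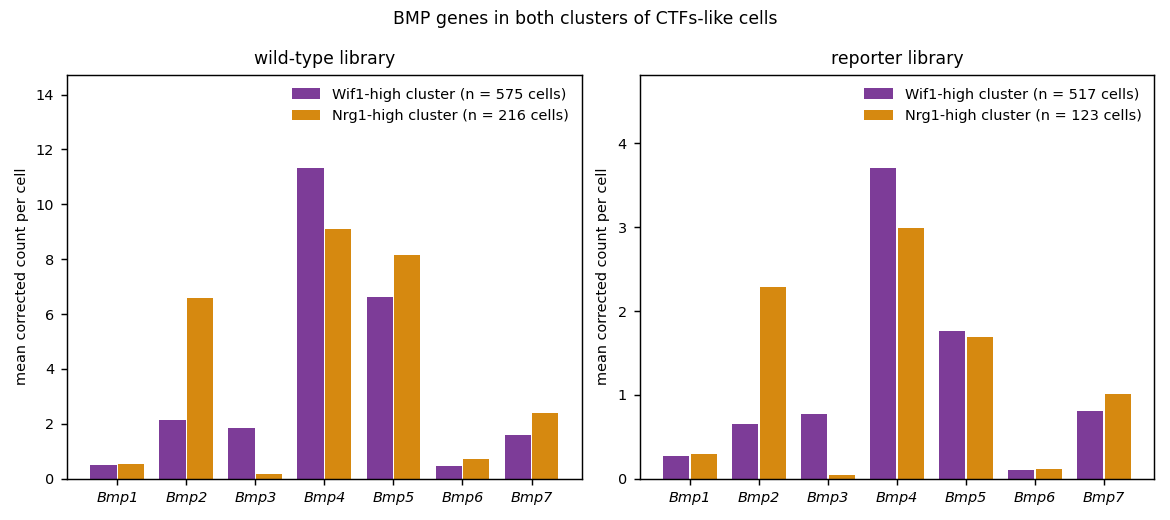
Mean corrected count per cell (y axis, a scale per library) of the 7 genes in the Wif1-high (purple) and Nrg1-high (orange) clusters of CTFs-like cells at resolution 0.8. Bmp2 is higher and Bmp3 lower in the Nrg1-high cluster of both libraries, with Bmp2 at 6.57 and 2.16 and Bmp3 at 0.17 and 1.86 in the wild-type library.

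The study parts crypt-top from crypt-bottom fibroblasts by high and low Pdgfra, so the members were also read against the Pdgfra count of each fibroblast in place of its cluster. Pdgfra is itself a CTFs marker used to name the classes, and the cells binned are those of the named fibroblast types. The bins are therefore not independent of the classes. Over bins of 0, 1 to 2, 3 to 5, 6 to 10 and over 10 Pdgfra counts in the wild-type library, the mean of Bmp5 was 1.08, 1.27, 2.18, 5.40 and 7.93, and that of Bmp2 0.50, 0.48, 1.07, 2.46 and 4.61. Bmp7 had 0.27, 0.31, 0.47, 1.39 and 2.14, and Bmp3 0.10, 0.13, 0.40, 1.14 and 1.23. These 4 ligands were all higher in the top bin than at 0, over bins in which CTFs-like cells made up from 6.87% to 94.9% of 2458 cells. Bmp4 went from 7.38 to 10.7, Bmp1 from 0.89 to 0.59 and Bmp6 from 0.80 to 0.66. Inside CTFs-like cells alone the mean of Bmp2 was 1.43 at 0 Pdgfra (23 cells) and 4.78 at over 10 (244 cells), and that of Bmp5 4.17 and 8.18, while median genes per cell were 1809 and 2637. The makeup of these bins changed too, since Nrg1-high cells were 0% of the first and 46.7% of the last. Within Wif1-high cells alone Bmp2 had a mean of 1.20 at 1 to 2 Pdgfra counts (49 cells) and 2.60 at over 10 (129 cells), and within Nrg1-high cells alone 5.57 at 6 to 10 (81 cells) and 7.25 at over 10 (114 cells). Inside pooled CBFs-like cells Bmp4 went from 7.34 at 0 (312 cells) to 4.76 at 6 to 10 (110 cells), while the share of CBFs2-like cells went from 12.8% to 66.4%. Within each type it did not fall this way, with means of 8.0 and 9.11 in CBFs1-like and of 2.83 and 2.56 in CBFs2-like cells of the same bins. Bmp5 stayed between 0.85 and 0.96 in the pooled cells and went from 0.97 to 2.22 in CBFs1-like cells. In the shallower reporter library only 4 of 4243 fibroblasts had over 5 Pdgfra counts, and from 0 to 3 to 5 counts Bmp5 went from 0.37 to 1.39 and Bmp2 from 0.24 to 0.83.

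Smooth muscle-like cells expressed Bmp4, Bmp5 and Bmp2 and had less of the other members. Bmp4 was above 0 in 91.7% (89.7 to 93.4; mean 3.99), Bmp5 in 54.1% (50.8 to 57.3; mean 1.10) and Bmp2 in 31.6% (28.7 to 34.7; mean 0.45) of the 949 cells. Each of these 3 was within 2-fold of pooled CBFs-like cells, although the Bmp4 mean lies between those of CBFs1-like (8.37) and CBFs2-like cells (2.67) and the Bmp5 mean is near that of CBFs1-like (1.3) and far above that of CBFs2-like cells (0.16). Against the pooled cells no member was 2-fold higher, where 6.12% of all genes were. Smooth muscle-like cells also held general fibroblast markers, at a summed mean of 72.6 beside 151 in CTFs-like cells, as did pericyte-like (42) and glia-like cells (30.6), and their part in these levels was not tested. The other 4 members were at least 2-fold lower than in CBFs-like cells, where 10.9% of all genes were: Bmp6 with a log2 ratio of -3.51 (-3.86 to -3.17), Bmp7 with -3.02 (-3.67 to -2.43), Bmp1 with -1.72 (-1.89 to -1.54) and Bmp3 with -1.36 (-2.11 to -0.66). The 118 pericyte-like cells had Bmp4 in 39.8% (30.9 to 49.3), Bmp2 in 27.1% (19.3 to 36.1) and Bmp5 in 24.6% (17.1 to 33.4), and Bmp7 in 0 of 118 cells, which allows a share of up to 2.54%. Glia-like cells (78) had Bmp4 in 37.2% (26.5 to 48.9) and Bmp1 in 29.5% (19.7 to 40.9), and Bmp3 and Bmp7 in none, which allows 3.85%. In 40 immune-like cells Bmp2, Bmp5 and Bmp6 were not detected, which allows 7.50%. These limits are 3 cells of the total and apply to cells with a count, not to cells that express the gene.

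The 591 blood endothelial-like cells had little of any member except Bmp4 (33.2%, 29.4 to 37.1; mean 0.71). Bmp2 was nonetheless higher in the 98 cells of the cluster led by Selp, the gene of P-selectin, than in the 493 cells led by Esm1, with means of 0.28 and 0.04, a log2 ratio of 2.69 (1.82 to 3.59). Of all genes, 13.6% were that much higher in the Selp cluster and 5.88% that much lower, among them Bmp1 (-1.58, -2.93 to -0.48). Only 27 and 21 corrected counts of Bmp2 lie behind this ratio. Endothelial-like cells with more BMP ligands also held more fibroblast collagen: the mean of Col1a1 was 0.59 in the 358 cells with none of Bmp2 to Bmp7 and 10.0 in the 16 cells with 3 or more. The part of fibroblast RNA in these values was not tested.

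A corrected count of exactly 1 of Bmp4 was most frequent in cells with few genes. It made up 51.5% of the 487 cells of the unnamed cluster led by the hemoglobin genes Hbb-bs and Hba-a1 (median 1741 genes), where 7.80% had 2 or more. In blood endothelial-like cells with 1500 to 2500 genes 26.0% had exactly 1 and 6.39% had 2 or more, and in those with more genes 12.4% and 23.4%. The correction to a common depth can give a cell with few reads a count where no read was seen. A Bmp4 share in cells with few genes is therefore read from counts of 2 or more. By that measure 96.7% of CTFs-like, 96.7% of CBFs1-like, 59.7% of CBFs2-like and 76.8% of smooth muscle-like cells had Bmp4, against 29.7% of pericyte-like, 19.2% of glia-like and 10.3% of blood endothelial-like cells. The unnamed cluster led by Ccl21a and Mmrn1, lymphatic vessel genes, had 2 or more in 39.4% of 175 cells, and its summed fibroblast markers reached 55.5% of the CBFs1-like level.

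In the epithelium only Bmp2 and Bmp3 were detected in more than 5% of the cells, in 24.2% (22.5 to 25.9) and 21.1% (19.6 to 22.8) of 2478. Against fibroblasts 6 of the 7 members were at least 2-fold lower in epithelial cells, where 16.7% of all genes were, and Bmp3 was within 2-fold (means 0.31 and 0.49; log2 ratio -0.66, -0.79 to -0.53). The gap was widest for Bmp4 (-6.56, -6.76 to -6.36) and narrowest of those 6 for Bmp2 (-1.49, -1.58 to -1.39). Epithelial cells accounted for 37.0% of all Bmp3 and 23.0% of all Bmp2 counts of the wild-type library and for 0.83% of the Bmp4 counts, while being 33.1% of its cells. Because the cells were mixed in set parts after sorting, these shares describe the library and not the tissue.

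Bmp2 was concentrated in colonocytes with Saa1. The 207 colonocyte-like cells of the cluster led by Atp12a and Saa1 had Bmp2 in 82.1% (76.2 to 87.1; mean 2.67), and the 406 cells of the cluster led by Sptssb and Cyp2c55 in 21.2% (17.3 to 25.5; mean 0.36). The log2 ratio was 2.87 (2.61 to 3.14), where 5.93% of all genes were at least 2-fold higher, and Bmp3, Bmp4 and Bmp5 stayed within 2-fold. The clusters had like depth, with median genes of 2899 and 2942.5. Enteroendocrine-like cells (87) had Bmp2 in 37.9% (27.7 to 49.0) and cells led by Krt36 and Defb45 in 31.5% (26.9 to 36.4). Goblet-like cells had it in 21.6% (18.4 to 25) and dividing cells, with a median of 3404 genes, in 7.0% (5.29 to 9.06). Blood endothelial-like cells, with a median of 2053 genes, had Bmp2 in 4.06%.

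Bmp3 had another order and, among the epithelial classes, was highest in dividing cells. This class also held stem cell markers, with means of 0.52 for Lgr5 and 1.03 for Smoc2. It was above 0 in 38.6% (35.1 to 42.1; mean 0.56) of the 757 dividing cells, in 25.9% (21.7 to 30.4) of the Cyp2c55 and 15% (10.4 to 20.6) of the Saa1 colonocyte-like cells, in 11.5% (8.52 to 15.2) of the cells led by Krt36, in 7.81% (5.85 to 10.2) of goblet-like and in 2.30% (0.28 to 8.06) of enteroendocrine-like cells. Smooth muscle-like cells, as a background level, had Bmp3 in 1.58% at a median of 2624 genes. At resolution 0.8 an epithelial cluster led by Nr2e3 and Hells had Lgr5, a stem cell marker, above 0 in 32.8% of 476 cells. The marker rule named it stem, with 6 of 6 stem markers at least 2-fold higher than in all other cells. It is shown here without a type because its leading genes also include the replication genes Mcm5, Mcm3 and Mcm6. It had Bmp3 in 40.3% (35.9 to 44.9) and Bmp2 in 6.30% (4.29 to 8.88). The cluster named dividing at this resolution had 227 cells, so the 757 dividing cells and the Lgr5 cluster need not be separate cells. Between dividing and Saa1 colonocyte-like cells the log2 ratio was 1.09 (0.68 to 1.53) for Bmp3 and -4.85 (-5.23 to -4.49) for Bmp2. Many genes differed between these cells, 36.2% at least 2-fold higher in dividing cells and 12.4% lower, so the Bmp3 difference is near the background and that of Bmp2 is far larger than the 2-fold line. Bmp5 was also at least 2-fold lower in dividing cells (-1.21), on 30 and 19 counts. With each cell thinned to 2000 counts Bmp3 was above 0 in 10.8% of dividing and 3.86% of Saa1 colonocyte-like cells, and Bmp2 in 1.98% and 38.2%.

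By the count of Krt20, a keratin of differentiated colonocytes, without clusters, Bmp2 was above 0 in 17.3% (15.6 to 19.1) of the 1898 epithelial cells with none and in 37.0%, 51.5%, 58.9% (50.5 to 67.0) and 40.6% (33.0 to 48.5) of those with 1 to 2, 3 to 5, 6 to 10 and over 10 counts. Bmp2 was thus highest at middle to high Krt20 and lower again in the top bin, whose interval overlaps neither that of the bin before it nor that of cells without Krt20. Krt20 is also a colonocyte marker used to name the classes, so these bins are not independent of them. Bmp3 was above 0 in 21.2%, 24.4%, 23.1%, 22.6% and 14.5% of the same cells, with intervals that all overlap. Of the remaining members, Bmp1 stood out in enteroendocrine-like cells, at 19.5% (11.8 to 29.4) against 1.19% to 1.84% in the other epithelial classes, and their median of 3720 genes was the highest. Bmp7 was above 0 in 7.66% (5.72 to 10.0) of goblet-like cells, and at resolution 0.8 in 13.7% (10.2 to 17.9) of the goblet-like cluster led by Retnlb and B3gnt6 against 0.97% (0.20 to 2.81) of that led by Zg16 and Best2 and 7.69% (3.58 to 14.1) of a shallower one led by Spink4 and Agr2.

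**Figure D4:**
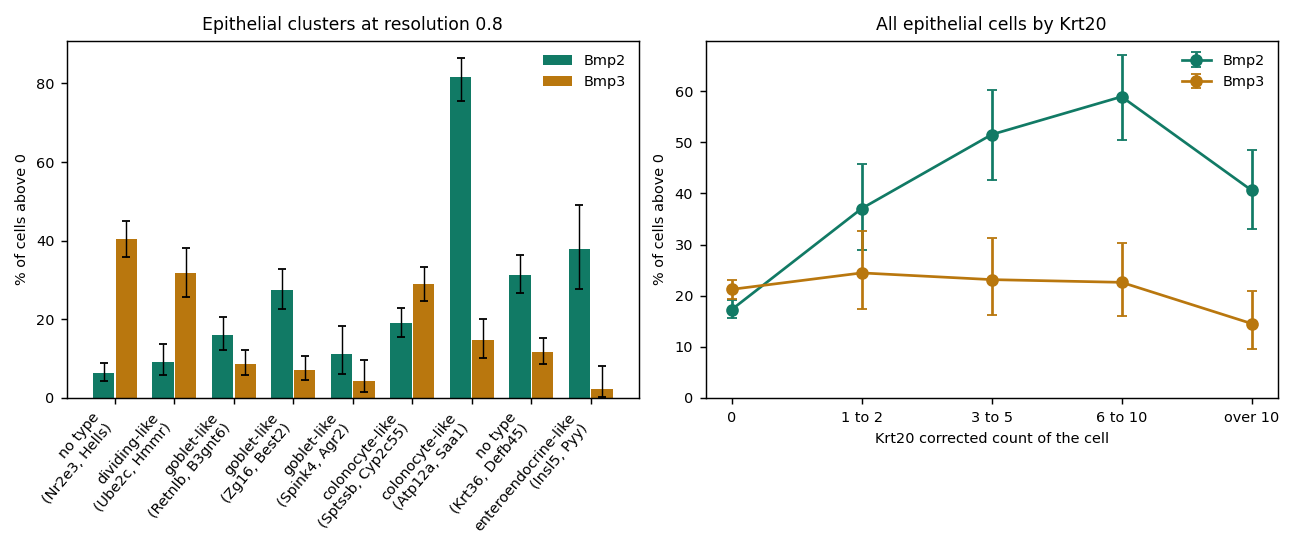
Left, percentage of wild-type epithelial cells with Bmp2 (green) and Bmp3 (brown) above 0 in each epithelial cluster at resolution 0.8; right, the same over bins of the Krt20 corrected count; bars are Clopper-Pearson 95% intervals. Bmp2 peaks in the Saa1 colonocyte-like cluster and at 6 to 10 Krt20 counts (58.9%), and Bmp3 peaks in the cluster led by Nr2e3 and Hells (40.3%).

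Fibroblasts of the crypt top carried several BMP ligands in the same cell. Of Bmp2 to Bmp7, 3 or more were above 0 in 93.6% (91.7 to 95.2) of wild-type CTFs-like cells, in 58.1% (55.2 to 61.0) of CBFs1-like, 19.6% (16.3 to 23.4) of CBFs2-like and 23.8% (21.1 to 26.7) of smooth muscle-like cells. In the reporter library the shares were 73.1% (69.4 to 76.5) of CTFs-like, 15.4% (14 to 16.8) of CBFs1-like and 1.41% (0.73 to 2.44) of CBFs2-like cells. The order CTFs-like, CBFs1-like, CBFs2-like held in both, with no overlap of the intervals, and CTFs-like cells were the shallowest of the 3 in the wild-type library (median 2433 genes against 2684.5 and 2796.5) and the deepest in the reporter library (1510 against 1411 and 1173). Thinned to 2000 counts per cell, the shares of cells with 3 or more were 56.7% of CTFs-like and 7.25% of all CBFs-like wild-type cells and 50.7% and 4.99% of the reporter cells. The mean number of ligands was 4.18 in wild-type CTFs-like and 2.41 in CBFs-like cells, and all 6 were above 0 in 7.60% and 0.43%.

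**Figure D5:**
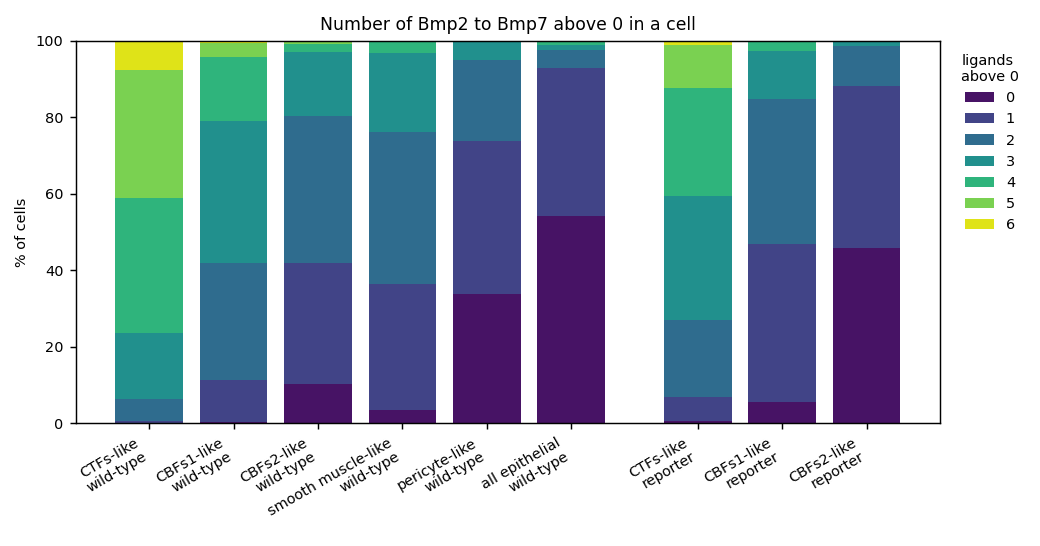
Percentage of cells (y axis) by the number of Bmp2 to Bmp7 above 0 in the cell (colors, 0 to 6) in classes of the wild-type and reporter library. The bands of 3 or more ligands take up 93.6% of wild-type and 73.1% of reporter CTFs-like cells, and the band of 0 takes up 54.3% of epithelial cells.

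In epithelial cells 45.7% (43.7 to 47.7) had at least 1 of the 6 ligands and 2.34% (1.78 to 3.02) had 3 or more. Most ligand-positive epithelial cells thus had a single ligand (959 of 1133), and in the Saa1 colonocyte-like cluster 72.5% of all cells did. Epithelial cells with more ligands held more fibroblast transcripts: the mean of Col1a1 was 0.03 in cells with no ligand, 0.10 with 1, 0.84 with 2 and 4.36 in the 58 cells with 3 or more, and that of Dcn 0.27, 0.50, 2.95 and 11.8. Bmp4 and Bmp5, both near 0 elsewhere in the epithelium, went together in these cells, with Bmp5 in 46.2% (35.6 to 56.9) of Bmp4-positive and 0.63% (0.35 to 1.03) of other epithelial cells. The share of these cells that hold RNA of 2 cell types was not tested. In the reporter library, whose gate should leave no epithelium, 19 of the 52 epithelial cells had 3 or more counts of Col1a1 and Bmp4 in 94.7%, and the other 33 had Bmp4 in 3.03%.

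Among the 21 pairs of members, Bmp4 with Bmp5 was the most frequent in fibroblasts, above 0 together in 62.7% (60.7 to 64.6) of wild-type and 27.3% (26.0 to 28.7) of reporter cells. Bmp1 with Bmp4 came next (48.7% and 22.9%), then Bmp4 with Bmp6 (44.0% and 17%). The product of both shares was 59.9% and 24.1% for Bmp4 with Bmp5, below the interval of the joint share in both libraries. Bmp4 was above 0 in 94.4% of wild-type fibroblasts, so its joint shares cannot lie far from the product and say little about the pairs. Within CTFs-like cells Bmp4 and Bmp5 were together in 95.2% of wild-type and 74.0% of reporter cells. In the epithelium the leading pairs were Bmp2 with Bmp3 (3.67%, product 5.12%), Bmp2 with Bmp4 (1.78%, product 0.89%) and Bmp4 with Bmp5 (1.69%, product 0.08%).

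Bmp2 with Bmp3 was the pair of CTFs-like cells that fell furthest below its product, at 29.4% (26.3 to 32.7) beside 32.9% in the wild-type and 15.6% (12.9 to 18.7) beside 17.2% in the reporter library, and it was singled out after its values were seen. Bmp3 was above 0 in 40.9% (36.9 to 45) of Bmp2-positive and 58.1% (51.4 to 64.6) of Bmp2-negative wild-type CTFs-like cells. The median genes per cell of these groups were 2604 and 2063. In the reporter library the shares were 36.4% (30.7 to 42.4) and 43.0% (37.8 to 48.2), whose intervals overlap. After thinning they were 15.1% and 27.2%, and 23.3% and 31.8%. Bmp2 and Bmp7 went the other way in the wild-type library, with Bmp7 in 77.0% (73.4 to 80.3) of Bmp2-positive and 54.2% (47.5 to 60.7) of Bmp2-negative cells. In reporter cells the shares were 58.5% (52.4 to 64.4) and 51.2% (46.0 to 56.5), whose intervals overlap, and after thinning 37.1% and 37.4%. No thinned wild-type shares are given here for this pair.

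Of the 57 other genes of the BMP pathway on the lists used here, 40 passed the count filter among wild-type and 38 among reporter cells. In CTFs-like over CBFs-like cells 10 were at least 2-fold higher and 12 lower in the wild-type library and 7 higher and 5 lower in the reporter library, where 5% and 8.51% of all genes were in the former and 4.82% and 4.99% in the latter, with a median log2 ratio of -0.09 and -0.03 beside -0.09 and 0.12 over all genes. Of these, 7 were higher and 5 lower in both libraries, and none changed sides past 2-fold. By list, 5 antagonists and extracellular modulators were higher and 5 lower of 13 in the wild-type library (3 and 2 of 12 in the reporter library; medians -0.81 and -0.15). The list of other BMP and GDF ligands also holds the activin subunit genes Inhba and Inhbb. It had 2 higher and 2 lower of 6 (2 and 1 of 5, medians 0.32 and 0.71). The 2 higher genes were Inhba and Inhbb in both libraries, so no BMP or GDF gene of the list was 2-fold higher. Receptors and co-receptors had 0 higher and 3 lower of 10 (0 and 2 of 10, medians -0.12 and -0.20). SMADs and response genes had 3 higher and 2 lower of 11 (2 and 0 of 11, medians 0.52 and 0.01). No gene of the tolloid family other than Bmp1 passed the filter.

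On a scale of log2(mean + 0.01), Grem1, the gene of the antagonist gremlin 1, had the widest gap of these genes: means of 0.01 in CTFs-like and 2.16 in CBFs-like wild-type cells (-6.61) and of 0.01 and 0.62 in the reporter library (-4.79). Gdf10, a ligand gene related to Bmp3, was also on the crypt-bottom side, at 0.01 and 0.15 (-2.79) and, in the reporter library, with no count in CTFs-like cells, at least 11.6-fold lower against a floor of 3 counts over the class. Rgmb, a BMP co-receptor gene, followed (-2.28 and -1.48). On the crypt-top side were Id1, a response gene of BMP-activated SMADs (5.50 and 1.15 in the wild-type library, 2.25; 2.20 in the reporter library), and the activin subunit genes Inhba (2.91 and 2.19) and Inhbb (1.28 and 2.00). The antagonist gene Nbl1 (2.07 and 2.65) and Crim1, whose membrane protein binds BMPs (1.5 and 1.53), were higher in CTFs-like cells too. Antagonist genes therefore stood on both sides of the comparison. In epithelial cells the pathway genes with the highest means were Id1 (3.79), Id3 (1.31) and Smad7 (1.23), response genes or an inhibitory SMAD.

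Over the 18 classes of both libraries, the gene with the level pattern most like each member was found among 6380 genes by Pearson correlation of log2 means. It is given as a description, since classes of a library share depth and preparation. Bmp4 was most like Htra1 (r = 0.99), Emilin1 and Oaf, Bmp1 most like Tpst1 (0.97), Fgfr1 and Timp2, and Bmp6 most like Ccdc80 (0.92), Vcan and Spon2. Bmp5 was most like Rerg (0.97), Cxcl14 and Ccdc3. Bmp7 was most like Cybrd1 (0.89), Col4a6 and Nrg1, all 3 of which are CTFs markers used to name the class. Bmp2 and Bmp3, the members with an epithelial level, had the lowest values: Bmp2 was most like Rdh10 (0.81), Fhl2 and Abhd2, and Bmp3 most like Akr1b8 (0.80), Fgf9 and Nr1h4.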

How the data were processed

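The deposited tables hold, per the labels and the study's methods, reads aligned by the authors with Cell Ranger to mm10 and normalized with SCTransform in Seurat 3.1 (R 3.6.2). The first table of each library holds whole numbers that the authors named raw but that are SCTransform-corrected UMI counts, treated here as a score because each cell had been rewritten to a common depth. The second deposited table is the natural log of 1 plus that corrected count and was used as a check only. A corrected count of 1 need not be a read, and the original depth of a cell is not analysed here. The libraries were made with versions 3 and 2 of a droplet 3′-end kit, so levels were not compared between them. They shared 1 cell barcode. The median share of mitochondrial counts was 9.07% and 2.33%.

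Cells were clustered again with Seurat 5.3.0 in R 4.3.3 (3000 variable genes less the 7 members and the pathway genes, 30 components, resolution 0.45 and 0.3), and clusters were named from marker lists without members. The rule that joins markers to a name was set after the clusters were seen. A type needed a mean log2 gap of its list of at least 1.5 over all other cells. The 3 reporter CBFs1-like clusters did not reach this and were named by CBFs1 markers at least 2-fold over the other fibroblast types. The other types also needed at least 4 markers 2-fold higher than in all other cells, and epithelial clusters that fit no single type were left without one. Doublets could not be removed: Scrublet marked 7 cells (0.0934%) and 5 cells (0.113%), so the caller had not worked, and a screen on markers of another class was tried instead. Shares of cells above 0 carry Clopper-Pearson 95% intervals, a share of 0 allows 3 counts of the total, and a ratio's interval is the binomial split of its summed counts. For thinned values each cell was cut to 2000 counts. Calls of 2-fold took genes whose compared cells summed to 20 corrected counts or more and a pseudocount of 0.01, while the ratios printed for members have none. With 1 library per group and cells that cannot be traced to mice, no test was run. Python 3.11.15, scanpy 1.11.5, pandas 2.3.3 and scipy 1.17.1 were used, and the calling of 2-fold changes was tested on simulated data. The 7 members, the marker lists, the pathway lists and the comparisons were chosen with earlier results of these data known. Members were all named, up to 8 pathway genes that passed 2-fold in the same direction in both libraries were named by the smaller of their gaps, as were the 3 with the highest epithelial mean, and the 3 most alike genes were named for each member.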

Additional observations from a re-analysis of the deposited data

How the results depend on the processing

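The direction of every log2 ratio between CTFs-like and CBFs-like cells (the former over the latter) was the same under all alternatives tried. The counts of members past 2-fold stayed within 1.5 times of the main count under the alternatives for which they were made. The crypt-bottom reference did change calls. Against CBFs1-like cells alone Bmp1 (-0.96) left the 2-fold lower side, and no wild-type member stayed on it. Against CBFs2-like cells alone Bmp6 (-0.45) left it in the reporter library, and Bmp4 (1.97 and 2.60) passed 2-fold higher. Ratios that moved beyond their counting interval were as follows. Against CBFs1-like cells alone, wild-type ratios were -0.96 for Bmp1, 2.87 for Bmp2, 0.33 for Bmp4, 2.41 for Bmp5 and 2.56 for Bmp7, and reporter ratios were 6.96 for Bmp3, 0.39 for Bmp4, 2.32 for Bmp5 and 3.14 for Bmp7. Against CBFs2-like cells alone, wild-type ratios were -1.47 for Bmp1, 2.50 for Bmp2, 1.97 for Bmp4, 5.46 for Bmp5, -0.57 for Bmp6 and 6.81 for Bmp7, and reporter ratios were 2.67 for Bmp2, 5.17 for Bmp3, 2.60 for Bmp4, 5.42 for Bmp5, -0.45 for Bmp6 and 6.69 for Bmp7. Both follow from the choice of reference. Without the Nrg1-high CTFs-like cells, chosen after seeing the data, wild-type ratios were 2.12 for Bmp2, 4.99 for Bmp3, 0.73 for Bmp4, 2.77 for Bmp5, -0.96 for Bmp6 and 2.87 for Bmp7, and the reporter ratio of Bmp2 was 1.73. Without the Sbno2 and Cxcl5 clusters of CBFs1-like cells, also chosen after seeing the data, reporter ratios were 2.98 for Bmp2, 0.92 for Bmp4, 3.07 for Bmp5 and 4.16 for Bmp7. With cells at or under 10% mitochondrial counts, wild-type ratios were 2.87 for Bmp2, 0.73 for Bmp4 and 2.97 for Bmp5. With 15 components they were 0.71 for Bmp4 and 2.97 for Bmp5, at resolution 0.8 0.76 for Bmp4, with cells scaled to equal totals 0.73 for Bmp4, and with cells thinned to 2000 counts -0.59 for Bmp6. With the pathway genes kept in the clustering the reporter ratio of Bmp5 was 2.51. The cause of these moves was not tested.

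The share of cells with 3 or more ligands depended on depth and on the count that calls a cell positive. Thinned to 2000 counts it was 56.7% of wild-type CTFs-like, 7.25% of CBFs-like and 0.202% of epithelial cells and 50.7% and 4.99% of the reporter fibroblasts, and the share with any ligand was 98.8%, 80.5%, 15.9%, 97.3% and 76.2% in the same order. With a count of 2 or more called positive, 3 or more ligands were found in 83.1%, 12.4%, 0.646%, 26.0% and 0.665%, and any ligand in 89.3% of wild-type CBFs-like, 18.8% of epithelial, 92.9% of reporter CTFs-like and 60.8% of reporter CBFs-like cells. With Bmp1 counted, any was 99% and 3 or more 67.0% of wild-type CBFs-like cells, 3 or more was 76.5% of reporter CTFs-like cells, and any was 89.1% and 3 or more 22.2% of reporter CBFs-like cells. The wild-type share of CTFs-like cells with 3 or more was 96.5% at or under 10% mitochondrial counts, 95.3% at resolution 0.8, 96.4% after the marker screen and 91.7% without Nrg1-high cells. That of wild-type CBFs-like cells was 48.9% at or under 10% mitochondrial counts, 43.0% at resolution 0.8 and 42.5% with 15 components. With pathway genes kept in, the reporter share of CTFs-like cells was 64.5%, without the Sbno2 and Cxcl5 clusters that of CBFs-like cells was 7.73%, and at or under 10% mitochondrial counts 39.2% of epithelial cells had any ligand. The order CTFs-like above CBFs-like held in each of these where both were computed.

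No paired analysis was possible because each group has 1 library, and with 1 library there is no replicate to leave out. Depth limits the reading most in the reporter library, where the median cell had 1381 genes, and for low members such as Bmp3 in crypt-bottom fibroblasts.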

Other observations

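Immune-like cells, a class not known as a main source of BMP ligands, had Bmp4 counts too. Bmp4 was above 0 in 43.0% (33.7 to 52.6) of the 114 immune-like cells of the reporter library, and among the 84 with fewer than 3 counts of Col1a1 in 35.7%. Their summed general fibroblast markers had a mean of 22.6, beside 41.7 in CTFs-like cells, while 15% of the 40 wild-type immune-like cells had Bmp4, all at a corrected count of 1. At 2 or more counts the shares were 20.2% of the reporter and 0% of the wild-type cells, and the part of fibroblast RNA in them was not tested.

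Within CTFs-like cells, more wild-type cells of the Nrg1-high than of the Wif1-high cluster had 4 or more ligands, at 89.8% (85.0 to 93.5) and 74.1% (70.3 to 77.6). In the reporter library the shares were 43.9% (35.0 to 53.1) and 39.8% (35.6 to 44.2), whose intervals overlap. Nrg1-high cells were the deeper ones in both, and the part of depth was not tested. The mean number of Bmp2 to Bmp7 above 0 was 4.43 and 4.16 in the wild-type library and 3.19 and 3.19 in the reporter library. All 6 were above 0 in 4.63% of Nrg1-high and 8.87% of Wif1-high wild-type cells.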
